A study of Mus musculus with 10 samples.

Results

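The endoplasmic reticulum is the main calcium store of the cell, and its channels, its pump and its sensors were followed here by their messenger RNA in 2 sorted populations of mouse embryonic brain cells. The 10 genes were chosen by name with earlier results of these libraries known. They are the ryanodine receptors *Ryr1*, *Ryr2* and *Ryr3*, the inositol trisphosphate (IP3) receptors *Itpr1*, *Itpr2* and *Itpr3*, the store pumps *Atp2a2* and *Atp2a3*, and the store sensors *Stim1* and *Stim2*. Of these, 9 were among the 14300 genes of the count table, and *Atp2a3* was not analysed here.

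Both populations came from c57bl/6j embryos of the *Grem1creERT; Rosa26LSLTdtomato* line, in which a transgene with *Grem1* regulatory sequence drives a tamoxifen-inducible Cre and a *Rosa26* allele gives red TdTomato protein after Cre has acted. Dams were given tamoxifen in mid-gestation and the cells were collected from the embryos 24 h later. All libraries share the same embryonic age, which is given with the processing of the data below. Live TdTomato+ cells, which had Cre activity under *Grem1* control or descend from such cells, and the remaining live TdTomato− cells carried the same alleles and the same treatment. Red cells therefore record past activity of the transgene. The TdTomato− population is a mixture of all remaining live cells of the dissected tissue. It also held RNA of excitatory neuron markers, as given below. The sample labels name the tissue as brain and the methods of the study as dorsal telencephalon, the precursor of the cortex. Each of 5 mice, with the numbers 2 to 6 in the labels, gave a library of either population.

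Calcium leaves the store through ryanodine receptors, which open on a rise of cytosolic calcium, and through IP3 receptors, which open when phospholipase C has made IP3. The pump encoded by *Atp2a2* returns it to the store. When the store empties, the STIM proteins of its membrane sense the loss and open Orai channels in the plasma membrane. In neurons these steps shape calcium signals in the cell body, dendrites and growth cones.

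The release channels form a pair of related families, and the stretch of coding sequence around the ion selectivity filter of the pore is shown here because it forms the path that calcium takes out of the store and lets the paralogs be told apart by eye. The sequences were read from the GENCODE transcripts of the GRCm38 genome, 72 bases of the coding strand from 5′ to 3′, and the capitals mark the 18 bases that encode the filter.
Ryr1: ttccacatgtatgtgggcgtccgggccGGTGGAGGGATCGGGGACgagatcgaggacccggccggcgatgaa
Ryr2: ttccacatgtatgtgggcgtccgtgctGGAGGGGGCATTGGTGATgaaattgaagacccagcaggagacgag
Ryr3: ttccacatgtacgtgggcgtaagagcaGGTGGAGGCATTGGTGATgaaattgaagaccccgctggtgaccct
Itpr1: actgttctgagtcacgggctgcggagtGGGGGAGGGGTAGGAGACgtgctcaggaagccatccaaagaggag
Itpr2: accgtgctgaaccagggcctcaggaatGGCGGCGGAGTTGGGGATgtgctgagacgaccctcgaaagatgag
Itpr3: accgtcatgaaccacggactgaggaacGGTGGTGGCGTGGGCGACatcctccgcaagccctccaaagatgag

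Within these windows *Ryr2* and *Ryr3* differed at 13 bases, 2 of them in the filter, and *Ryr1* differed from *Ryr3* at 19 bases. The IP3 receptor genes differed from one another at 20 to 23 bases. Over the whole aligned coding sequence, 69.7% of bases were identical between *Ryr2* and *Ryr3*, 68.8% between *Ryr1* and either of the others, and 69.8% to 71.6% between the IP3 receptor genes. The longest identical run between any pair of members of a family was 35 bases, between *Ryr1* and *Ryr2*. No 75-base window of the transcripts examined was shared exactly between members, so a read of that length has at least 1 base by which to tell the paralogs apart. Windows shared with some other annotated gene were 5.01% of those of *Ryr3*, all with the overlapping gene *Aven*, and 2.66% or less for each of the other members.

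Total counts per library were 23429034 to 27286180, and a count of 3, taken as the floor, was worth 0.104 to 0.136 counts per 1000000 counted reads (CPM). CPM were scaled by TMM, which corrects for a few abundant genes taking reads from the rest. *Grem1* itself had 6.11 ± 0.731 CPM (SD, n = 5) in TdTomato− cells and 63.3 ± 3.10 CPM in TdTomato+ cells, higher in 5 of 5 mice (log2 fold change 3.37, SE 0.0721; edgeR quasi-likelihood test, adjusted p = 1.8e-09). All 7 markers of cortical excitatory neurons were higher in TdTomato+ cells, where their summed level was 6847 to 7886 CPM against 2199 to 2899 CPM in TdTomato− cells. The 8 markers of radial glia and intermediate progenitors were lower (117 to 174 against 2113 to 2581 CPM), as were the 6 of GABAergic neurons (35.5 to 51.9 against 1179 to 1509 CPM) and the 4 of Cajal-Retzius cells (127 to 153 against 208 to 371 CPM). The 3 of 5 erythroid markers in the table summed to 0.861 to 16.5 CPM in TdTomato+ and 51.3 to 182 CPM in TdTomato− cells, and 2 of 5 endothelial markers to 0.678 to 1.91 and 2.05 to 3.62 CPM. Skeletal and cardiac muscle markers, 3 of 5 in the table, summed to 1.94 to 4.73 CPM. These mixtures differed between the populations as the calcium genes did, and their part in the results was not tested. In bulk RNA, fewer cells of a type and less RNA per cell cannot be told apart.

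*Ryr3* and *Itpr2* were the members that differed most between the populations, and they went in opposite directions. *Ryr3* was 12.7-fold higher in TdTomato+ cells and *Itpr2* was about 12-fold lower, a value that rests on 2 to 6 reads a library in TdTomato+ cells, while the other 7 members differed by log2 fold changes between −0.13 and 0.56. The pump gene *Atp2a2* was the most abundant member in both populations and was slightly lower in TdTomato+ cells. Because the genes were chosen with this comparison known, their differences are given as a description, no p is given for a member in this comparison, and the count past the threshold of the fit over all genes is quoted only beside the share of all genes.

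Of the 9 members, 5 had an adjusted p of 0.05 or less across all genes and were higher (*Ryr1*, *Ryr2*, *Ryr3*, *Itpr3* and *Stim2*), where 37.9% of all genes did, and 2 were lower (*Itpr2* and *Atp2a2*), where 39.4% of all genes did. When a log2 fold change beyond 2 in either direction was also asked for, *Ryr3* was higher, as were 3.2% of all genes, and *Itpr2* was lower, as were 9.74%. The median log2 fold change was 0.27 over the 9 members and −0.01 over all genes tested. With no pairing by mouse the number of members past the threshold was 4 (*Ryr3*, *Itpr2*, *Atp2a2* and *Stim2*), and without mouse 4 it was also 4, the same genes. *Ryr1*, *Ryr2* and *Itpr3* were also lost under other settings, *Ryr1* with upper-quartile scaling, the filter at 1 CPM or without mouse 5 or 6, *Ryr2* with DESeq2 or without mouse 6, and *Itpr3* with upper-quartile scaling, DESeq2 or without mouse 2, 3 or 5. The filter at 1 CPM removed *Itpr3* from the fit. Nothing is read from these counts about the members.

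**Figure D1:**
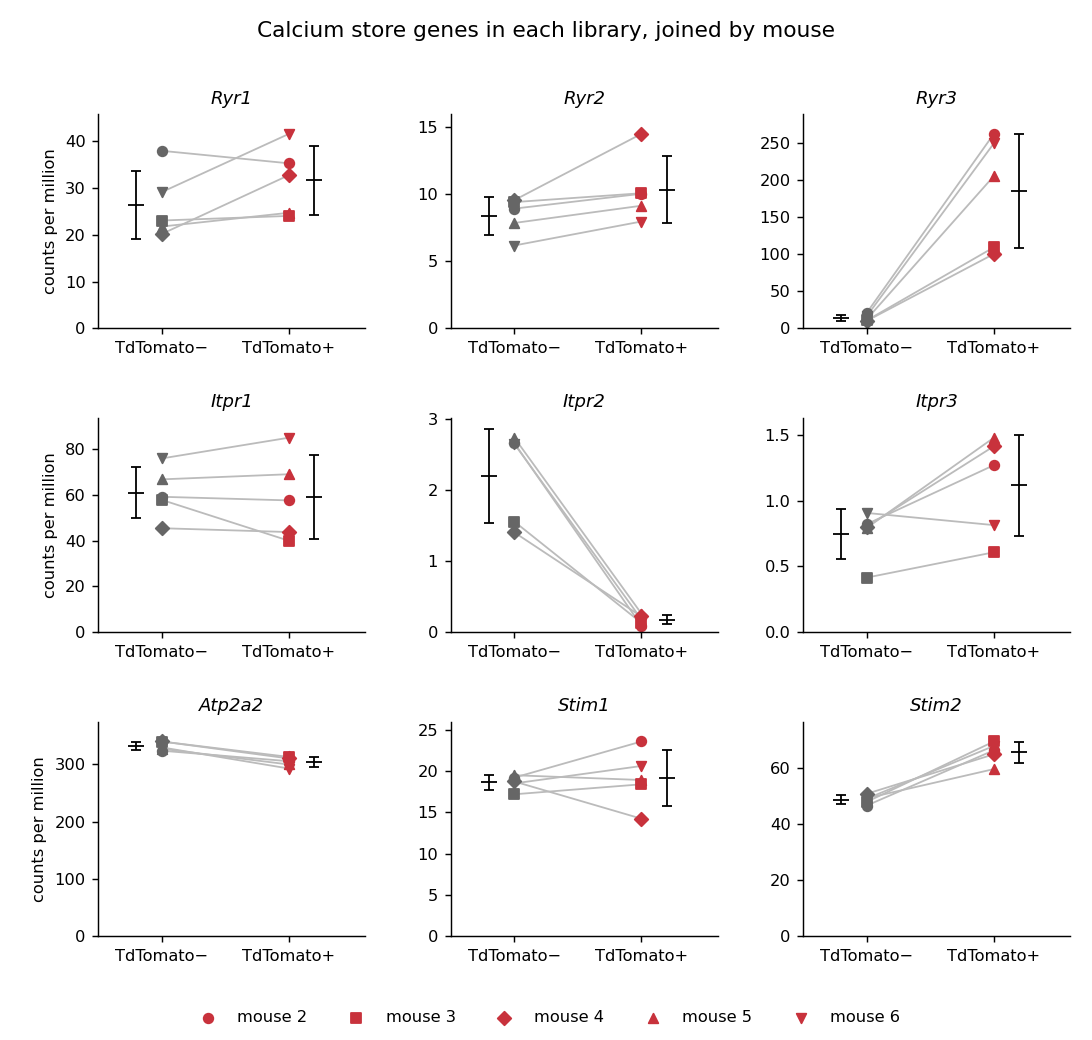
Level of each of the 9 genes in CPM (vertical axes, linear and starting at 0) in the TdTomato− libraries (grey) and the TdTomato+ libraries (red), with a line joining the libraries of a mouse, a symbol for each mouse and black bars for the mean ± SD of 5 libraries. *Ryr3* (109.6 CPM or less in mice 3 and 4, 206 CPM or more in the others, in TdTomato+ cells), *Itpr2*, *Atp2a2* and *Stim2* separate the populations without overlap, whereas the ranges of the other 5 genes overlap.

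Of the ryanodine receptors, *Ryr3*, the form found widely at low level outside muscle and in parts of the brain, had the largest difference. Its gene lies on the minus strand at chr2:112631355-113217096. It had 21.0, 10.7, 10.1, 12.4 and 16.5 CPM in the TdTomato− libraries of mice 2, 3, 4, 5 and 6, and 263, 109.6, 100.6, 206 and 250.2 CPM in the TdTomato+ libraries. Every TdTomato+ library was thus above every TdTomato− library. The means were 14.1 ± 4.58 and 186 ± 76.8 CPM (SD, n = 5), and the fitted log2 fold change was 3.67 (SE 0.113), the 50th largest of 14300. Within mice the log2 difference ran from 3.31 in mouse 4 to 4.05 in mouse 5. The exons of *Ryr3* overlap those of *Aven*, a gene on the opposite strand, over 4.8% of their length, and *Aven* had 1.86 ± 0.262 CPM in TdTomato+ cells against 5.54 ± 0.508 CPM in TdTomato−, a difference in the other direction.

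*Ryr1*, the receptor that releases calcium for contraction of skeletal muscle, had a range of 20.2 to 38.0 CPM among TdTomato− libraries and of 24.1 to 41.6 CPM among TdTomato+ libraries. It lies on the minus strand at chr7:29003344-29125179. The ranges overlapped, and *Ryr1* was higher in TdTomato+ cells in 4 of 5 mice and lower in mouse 2, with a log2 fold change of 0.27 (SE 0.110). Leaving out mouse 4, the pair with the widest difference, brought it to 0.16. *Ryr2*, the receptor of heart muscle and a major form in adult brain, was at chr13:11553102-12106945 on the minus strand. It had 6.17 to 9.54 CPM in TdTomato− and 7.95 to 14.48 CPM in TdTomato+ cells, ranges that overlap. *Ryr2* was higher in 5 of 5 mice, by 0.10 to 0.60 on the log2 scale, with a fitted log2 fold change of 0.29 (SE 0.0973).

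Expressed per kilobase of exon, so that genes of different length can be compared, the 3 ryanodine receptors together had 2.25 ± 0.561 RPKM (CPM divided by the exonic length in kilobases) in TdTomato− cells and 11.6 ± 4.19 RPKM in TdTomato+ cells (SD, n = 5). In TdTomato− cells *Ryr1* made up 53.7 ± 1.73% of this sum, *Ryr3* 32.7 ± 3.16% and *Ryr2* 13.6 ± 4.23%. In TdTomato+ cells *Ryr3* made up 82.8 ± 6.61%, *Ryr1* 13.5 ± 4.57% and *Ryr2* 3.66 ± 2.15%. The share of *Ryr3* was 28.9% to 35.9% in the TdTomato− and 72.6% to 88.2% in the TdTomato+ libraries. The leading receptor was therefore *Ryr1* in all 5 TdTomato− and *Ryr3* in all 5 TdTomato+ libraries. The lengths are the union of all annotated exons, which no single transcript need have.

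**Figure D2:**
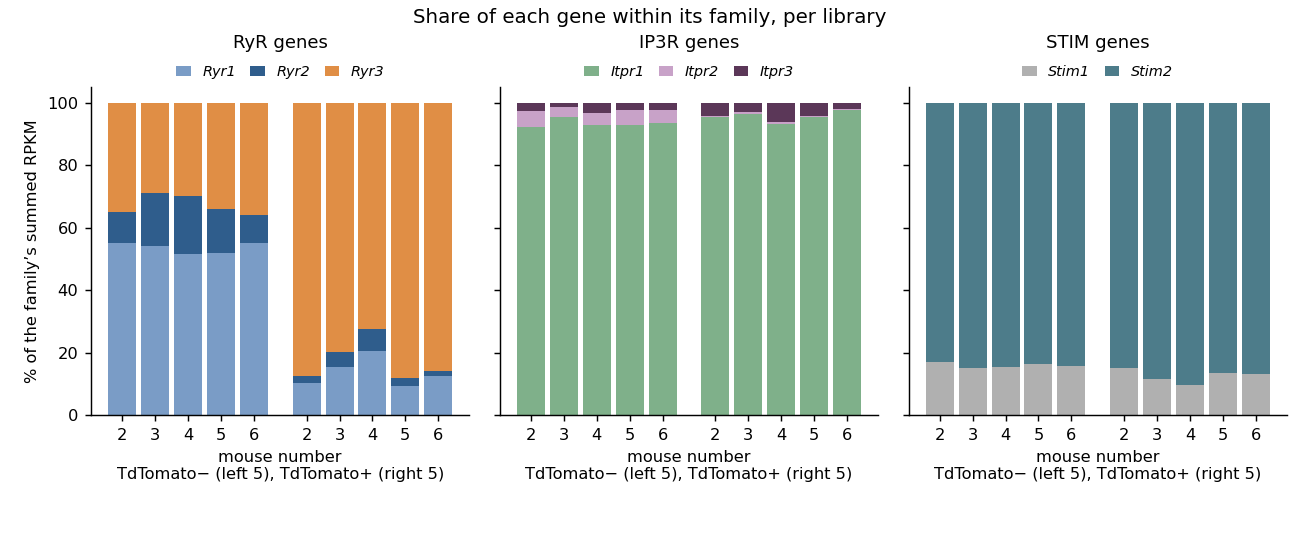
Share of each gene in the summed RPKM of its family (vertical axis, percent) in the 10 libraries, with the TdTomato− libraries of mice 2 to 6 on the left of each panel and the TdTomato+ libraries on the right. *Ryr3* takes 28.9% to 35.9% of the ryanodine receptor sum on the left and 72.6% to 88.2% on the right, *Itpr1* takes over 92% of the IP3 receptor sum in every library, and *Stim2* over 83% of the STIM sum.

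Of the IP3 receptors, *Itpr1*, the main form in neurons, was by far the most abundant in both populations. It lies on the plus strand at chr6:108213096-108551109. Its levels in TdTomato− cells were 59.1, 57.8, 45.4, 66.7 and 75.9 CPM in mice 2 to 6, and in TdTomato+ cells 57.5, 39.9, 43.7, 69.0 and 84.9 CPM. The populations overlapped throughout, and *Itpr1* was higher in TdTomato+ cells in 2 mice and lower in 3. The fitted log2 fold change was −0.08 (SE 0.0899). Mouse 6 was highest in both populations.

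*Itpr2*, the IP3 receptor best known from glia and heart muscle, lies on the minus strand at chr6:146108299-146502223. It had 2.66, 1.56, 1.40, 2.73 and 2.65 CPM in the TdTomato− libraries of mice 2 to 6, and 0.0907, 0.130, 0.221, 0.261 and 0.181 CPM in the TdTomato+ libraries. The ranges did not overlap, and *Itpr2* was lower in TdTomato+ cells in 5 of 5 mice, with a fitted log2 fold change of −3.58 (SE 0.283). These levels rest on 35 to 76 reads a library in TdTomato− and 2 to 6 reads in TdTomato+ cells, so that the latter stand at or near the floor of 3 counts. The table keeps genes over 0.5 CPM in 5 or more libraries, and *Itpr2* met this only through its TdTomato− libraries, so that a gene at its TdTomato+ level in both populations would not be in the table.

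The TdTomato− level of *Itpr2* was lower in mice 3 and 4 than in the others. Some marker lists were lower in those libraries too, and others were not. The 3 microglial markers in the table, of 5 listed, summed to 44.0, 9.43, 12.4, 34.2 and 37.1 CPM in TdTomato− cells of mice 2 to 6 and to 0.589 to 1.22 CPM in TdTomato+ cells, where *P2ry12* was at or under the floor in every library. The 2 pericyte and smooth muscle markers in the table, of 4 listed, summed to 14.1, 9.33, 8.62, 13.0 and 14.1 CPM in TdTomato− and to 0.706 to 2.04 CPM in TdTomato+ cells. The 3 erythroid markers, of 5 listed, summed to 77.1, 51.3, 66.8, 171 and 182 CPM in TdTomato− cells, and the 6 GABAergic markers, of 6, to 1510, 1200, 1180, 1400 and 1210 CPM. The 8 radial glia and intermediate progenitor markers summed to 2360, 2430, 2110, 2580 and 2430 CPM, and the 2 endothelial markers in the table, of 5 listed, to 2.66, 2.87, 2.05, 3.37 and 3.62 CPM, with mouse 3 above mouse 2 in both, and excitatory neuron markers were highest in mouse 3 (2900 CPM). The part of these cells in the level of *Itpr2* was not tested.

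*Itpr3*, the IP3 receptor of many epithelial and secretory cells, was scarce in both populations, with 12 to 26 reads a library in TdTomato− and 14 to 34 in TdTomato+ cells. It lies on the plus strand at chr17:27057304-27122223. Its ranges, 0.415 to 0.906 CPM and 0.607 to 1.48 CPM, overlapped, and it was higher in TdTomato+ cells in 4 of 5 mice, with a log2 fold change of 0.56 (SE 0.221). Together the 3 IP3 receptor genes had 3.56 ± 0.660 RPKM in TdTomato− and 3.36 ± 1.01 RPKM in TdTomato+ cells (SD, n = 5). *Itpr1* made up 93.5 ± 1.19% and 95.7 ± 1.68% of these sums. The share of *Itpr2* was 4.13 ± 0.804% in TdTomato− and 0.373 ± 0.157% in TdTomato+ cells, and that of *Itpr3* was 2.37 ± 0.703% and 3.89 ± 1.58%.

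*Atp2a2* encodes the pump that fills the store in most tissues, and it lies on the minus strand at chr5:122453513-122502225. It had 324, 339.8, 339.9, 327 and 329.6 CPM in TdTomato− cells of mice 2 to 6 and 305, 313, 310.2, 299.7 and 293 CPM in TdTomato+ cells. All TdTomato+ libraries lay below all TdTomato− libraries, although the gap between the nearest of them was small. The fitted log2 fold change was −0.13 (SE 0.0342), and the difference within mice ran from −0.17 to −0.08. A difference this small depends on the scaling between the populations. The replicate spread was also small, with an SD of 7.39 CPM around a mean of 332 and of 8.17 CPM around a mean of 304. All 5 of the other listed pump genes and pump regulators, *Atp2a1*, *Pln*, *Sln*, *Strit1* and *Mrln*, were outside the table and were not analysed here.

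The sensor gene *Stim2*, whose protein responds to small losses of store calcium and keeps its resting level, was higher in TdTomato+ cells. It lies on the plus strand at chr5:53998499-54121057. It had 46.7, 48.0, 50.9, 49.3 and 49.2 CPM in TdTomato− cells of mice 2 to 6, and 66.5, 69.7, 65.1, 59.8 and 68.1 CPM in TdTomato+ cells. The ranges did not overlap, and the log2 fold change was 0.43 (SE 0.0522), with differences of 0.28 to 0.54 within mice. *Stim1*, whose protein needs a deeper loss of store calcium to act, was at chr7:102267806-102437319 on the plus strand. *Stim1* had 18.6 ± 0.896 CPM and 19.1 ± 3.42 CPM (SD, n = 5), with overlapping ranges, and was higher in TdTomato+ cells in 3 mice and lower in 2. Its log2 fold change was 0.03 (SE 0.0958). *Stim2* made up 84.1 ± 0.748% of the STIM sum in TdTomato− and 87.4 ± 1.98% in TdTomato+ cells.

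**Figure D3:**
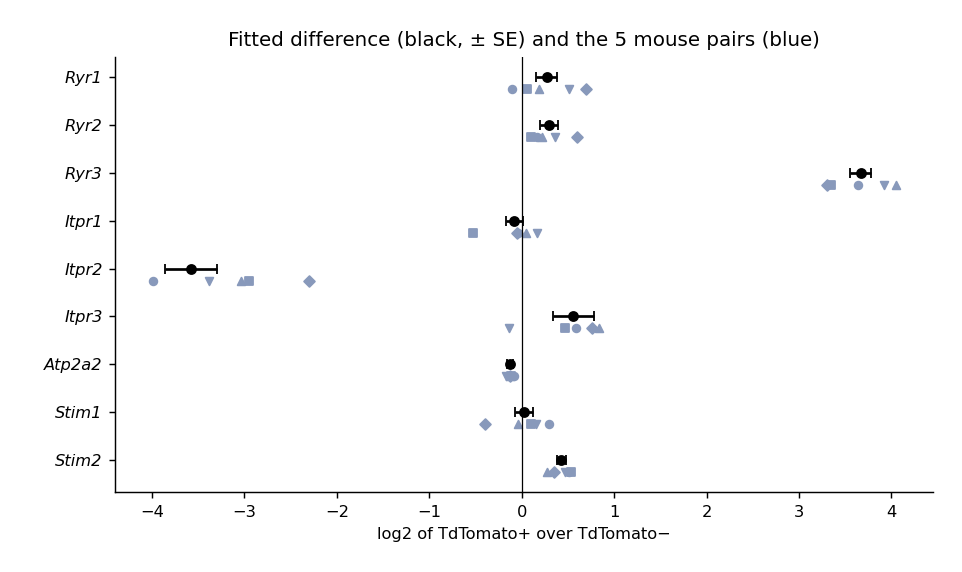
Log2 of TdTomato+ over TdTomato− (horizontal axis) for the 9 genes, with the fitted value ± SE in black and the 5 mouse pairs in blue, 1 symbol for each mouse. *Ryr3* (3.31 to 4.05) and *Itpr2* (−3.99 to −2.30) lie far from 0 on opposite sides, and the pairs of *Ryr1*, *Itpr1*, *Itpr3* and *Stim1* fall on both sides of 0.

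Ordered by RPKM, the members in TdTomato− cells were *Atp2a2* (54.6), *Stim2* (9.51), *Itpr1* (3.33), *Stim1* (1.80), *Ryr1* (1.21), *Ryr3* (0.744), *Ryr2* (0.291), *Itpr2* (0.149) and *Itpr3* (0.0829). The library ranges of *Stim1* and *Ryr1*, of *Ryr1* and *Ryr3*, and of *Itpr2* and *Itpr3* overlapped, but within each of the 5 libraries the first of each pair stood above the second. In TdTomato+ cells the order was *Atp2a2* (50.02), *Stim2* (12.8), *Ryr3* (9.79), *Itpr1* (3.22), *Stim1* (1.85), *Ryr1* (1.45), *Ryr2* (0.359), *Itpr3* (0.124) and *Itpr2* (0.0119). Here the ranges of *Stim2* and *Ryr3*, *Itpr1* and *Stim1*, and *Stim1* and *Ryr1* overlapped, and within libraries *Stim2* was above *Ryr3* in 4 of 5, *Itpr1* above *Stim1* in 5 of 5 and *Stim1* above *Ryr1* in 4 of 5. *Ryr3* stood above *Itpr1* in 5 of 5 TdTomato+ libraries and below it in 5 of 5 TdTomato− libraries. With the longest transcript as the length, an alternative chosen after seeing the data, both counts stayed at 5, but the TdTomato+ ranges of *Ryr3* (6.50 to 17.0 RPKM) and *Itpr1* (4.04 to 8.604 RPKM) overlapped, and *Stim2* was above *Ryr3* in 2 of 5 libraries.

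*Ryr3* also differed between the mice, in the same order in both populations. Mouse 2 had the highest level, followed by mice 6, 5 and 3, and mouse 4 had the lowest, in TdTomato− as in TdTomato+ cells. Of the 9 members, 2 (*Ryr3* and *Ryr2*) kept the same order of the 5 mice in both populations, as did 2.55% of all genes. A test of the mouse term in the same edgeR fit, which does not use the difference between the populations and was added after the values had been seen, gave an adjusted p of 0.026 for *Ryr3* (F = 21.8), where 1.86% of all genes passed. No other member passed, with adjusted p from 0.056 for *Itpr1*, 0.13 for *Ryr1* and 0.14 for *Ryr2* to 0.86 for *Stim2*. A p above the threshold does not show that these genes were alike among mice. *Ryr3* no longer passed without mouse 2 (adjusted p = 0.079) or without mouse 3 (adjusted p = 0.053), and the number of genes passing fell from 266 to between 74 and 205 when a mouse was left out. Cell type markers also varied between the mice. The 7 excitatory neuron markers summed to 6850, 7890, 7660, 7030 and 7290 CPM in TdTomato+ cells of mice 2 to 6 and to 2200, 2900, 2650, 2390 and 2720 CPM in TdTomato− cells, lowest in mouse 2 in both, and *Tbr1* among them passed the test between mice (adjusted p = 0.036). The 4 Cajal-Retzius markers summed to 216, 337, 371, 208 and 270 CPM in TdTomato− cells, highest in mice 3 and 4, and *Lhx5* passed (adjusted p = 0.043), while the microglial sums above were lowest in mice 3 and 4. Their part in the differences of *Ryr3* between mice was not tested. The labels give no litter or sorting day by which the mice could be grouped.

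The genes whose profile over the 10 libraries was most like that of the leading member of each family were found by the root mean square difference of centred log2 CPM, among 9784 genes. For *Ryr3* these were *Igfbp3*, a secreted binder of insulin-like growth factors (0.214), *Arhgap29*, a GTPase-activating protein (0.247), and *Dync1i1*, a chain of the dynein motor (0.326). Their log2 fold changes were 3.76, 3.53 and 3.93. For *Itpr1* they were *Furin*, a protease (0.157), *Mycn*, a transcription factor (0.160), and *Serinc5*, a membrane protein (0.173). For *Atp2a2* they were *Ndufs1*, a subunit of mitochondrial complex I (0.0204), *Endov* (0.0290) and *Eprs*, a transfer RNA synthetase (0.0307). For *Stim2* they were *Ocrl*, a phosphoinositide phosphatase (0.0456), *Klc2*, a kinesin light chain (0.0478), and *Xpa*, a DNA repair protein (0.0496). The match is of profile alone.

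*Ryr3* and *Grem1* are neighbours on the chromosome, with 529 kb between them. Of 65 genes that start within 1 Mb of *Ryr3*, 13 were in the table, with a median log2 fold change of 0.22. At an adjusted p of 0.05, 7 of these, *Grem1* among them, were higher in TdTomato+ cells and 5 lower. The shares of the whole table were 37.9% higher and 39.4% lower, so nothing is read from these counts about the locus. Beside *Grem1* (3.37), the higher genes included *Lpcat4* (0.51), *Emc7* (0.35), *Zfp770* (0.32), *Emc4* (0.23) and *Scg5* (0.22). The lower genes were *Arhgap11a*, a GTPase-activating protein of dividing progenitors (−3.48), *Aven* (−1.58), *Gjd2*, a neuronal gap junction protein (−1.30), *Aqr* (−0.46) and *Nop10* (−0.16), and *Katnbl1* did not pass (0.11, adjusted p = 0.42).

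**Figure D4:**
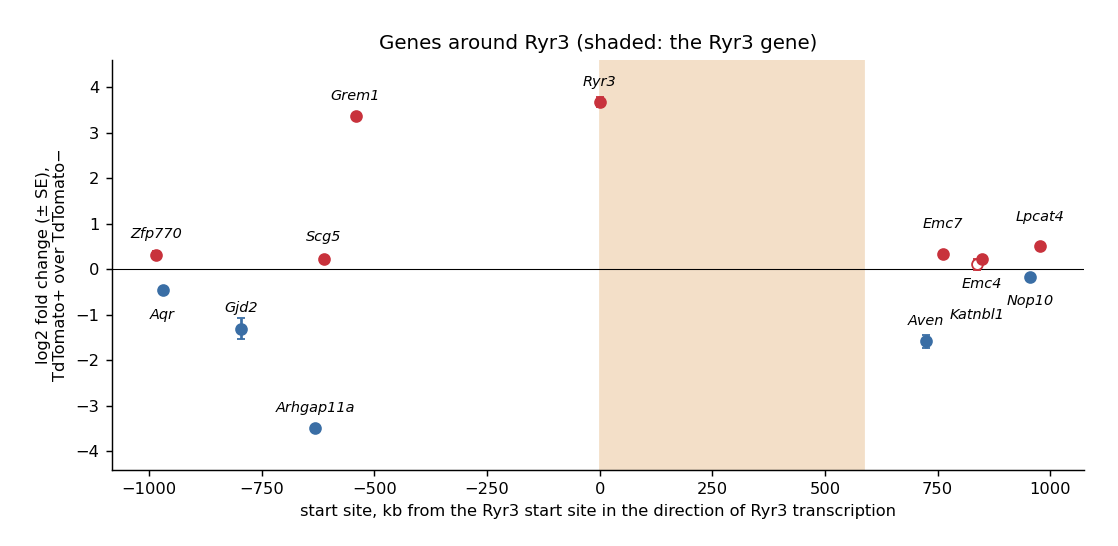
Log2 fold change ± SE of TdTomato+ over TdTomato− (vertical axis) for *Ryr3* and the genes named around it, placed by the distance of their start site from that of *Ryr3* in kilobases (horizontal axis, positive in the direction in which *Ryr3* is transcribed). The shaded band is the *Ryr3* gene, filled points have an adjusted p of 0.05 or less, and *Ryr3* (3.67) and *Grem1* (3.37) stand above the other points, of which *Lpcat4* (0.51) is the highest.

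The other genes of the calcium store pathway were taken as 11 lists of 129 genes in all, of which 107 were in the table. Of these, 56 were higher and 37 lower in TdTomato+ cells and 14 did not pass (edgeR, adjusted p over all 14300 genes, of which 37.9% were higher and 39.4% lower), with a median log2 fold change of 0.21 against −0.01 over all genes. Pumps and exchangers of the plasma membrane and Golgi (9 of 11 higher), calmodulin kinases and calcineurin (12 of 14) and store-operated entry (6 of 8) were mostly higher, whereas calcium-binding proteins inside the store were lower (8 of 9) and none of them was higher.

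Among the genes of store-operated entry, the median log2 fold change was 0.81. The Orai genes, which encode the channels that STIM proteins open, did not move together. *Orai1* fell from 11.8 ± 1.70 to 8.07 ± 0.740 CPM (log2 fold change −0.55, adjusted p = 0.0014), lower in 5 of 5 mice. *Orai2* rose from 27.5 ± 2.20 to 53.7 ± 2.48 CPM (0.97, adjusted p = 3.5e-07), higher in 5 of 5. *Orai3* (0.64), *Saraf*, which turns store-operated entry off (0.44), and the cation channel gene *Trpc1* (1.18) were also higher in 5 of 5 mice, and *Trpc4* was lower (−1.44).

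Of 21 genes whose proteins bind the release channels, 12 were higher, 6 lower and 3 did not pass, with a median of 0.22, where 37.9% of all genes were higher and 39.4% lower. Of the junctophilins, which hold the store membrane against the plasma membrane, *Jph4* had 213 ± 16.8 and 695 ± 39.9 CPM (1.71, adjusted p = 8e-09) and *Jph3* had 53.0 ± 4.78 and 151 ± 15.8 CPM (1.51), both higher, whereas *Jph1*, named here after its value was seen, was lower (7.04 ± 1.23 and 5.23 ± 0.857 CPM, −0.43, adjusted p = 0.039, lower in 4 of 5 mice). *Fkbp1b*, which binds and steadies ryanodine receptors, rose from 3.12 ± 0.681 to 12.1 ± 1.496 CPM (1.97, adjusted p = 3.6e-07), and its relative *Fkbp1a* by less (0.22). *Homer1*, a scaffold that ties both families of channel to receptors at the surface, was higher (1.56), whereas *Homer2* was lower (−1.07). *Cabp1*, an inhibitor of IP3 receptors, was higher (1.36), *Itprid2* was lower (−1.93), and *Ahcyl1*, which competes with IP3 for its site, did not pass (0.08, adjusted p = 0.088).

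Inside the store, 8 of 9 genes for calcium-binding proteins were lower and 1 did not pass, with a median of −0.71. *Rcn1* fell from 43.8 ± 2.82 to 2.22 ± 0.607 CPM (−4.31, adjusted p = 4.3e-09), and the chaperone gene *Hspa5* from 287 ± 10.3 to 151 ± 28.6 CPM (−0.94, adjusted p = 5.1e-06). Of the leak channels of the store 3 of 6 were higher and 3 lower, where 37.9% of all genes were higher and 39.4% lower, among them *Pkd1* (0.56) and *Pkd2* (−0.55). In the list of acidic stores 3 of 7 genes were in the table, 1 higher (*Mcoln1*, 0.65), 1 lower and 1 not past the test, near the same shares of all genes.

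Of 17 genes that make or remove IP3, 4 were higher, 8 lower and 5 did not pass, with a median of −0.17, where 37.9% of all genes were higher and 39.4% lower. The phospholipase C genes *Plce1* and *Plch1* were lower, from 50.3 ± 5.63 to 2.29 ± 0.988 CPM (−4.47, adjusted p = 4.2e-08) and from 25.9 ± 1.29 to 2.74 ± 0.380 CPM (−3.24, adjusted p = 6.6e-09). Other phospholipase C genes were higher, *Plcb2* (2.61, adjusted p = 9.1e-06) and *Plcd3* (1.52, adjusted p = 5.1e-05), both named here after their values were seen and both higher in 5 of 5 mice. The G protein genes *Gnaq* (0.45) and *Gna11* (0.21), which couple surface receptors to phospholipase C, were higher in 5 of 5 mice. *Plcb1*, the phospholipase that they activate in cortical neurons, did not pass (−0.02, adjusted p = 0.95). Its TdTomato− levels were 54.9 to 66.9 CPM, and its TdTomato+ levels were 82.6, 87.2 and 76.1 CPM in mice 2, 5 and 6 and 43.2 and 30.6 CPM in mice 3 and 4, so that *Plcb1* was higher in TdTomato+ cells of the former and lower in those of the latter. Mice 3 and 4 were also those with the lowest *Ryr3* in TdTomato+ cells, a match noted after the values were seen. *Plcb1* did not pass the test between mice (edgeR quasi-likelihood test, adjusted p = 0.46). In TdTomato− cells it was highest in mouse 3 (66.9 CPM), where *Ryr3* was not.

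Of the 11 pumps and exchangers of the plasma membrane and Golgi, 9 were higher, where 37.9% of all genes were, with a median of 1.15. *Slc8a3*, a sodium calcium exchanger, rose from 12.2 ± 0.993 to 106.6 ± 4.72 CPM (3.13, adjusted p = 1.1e-09), *Slc24a2* rose (2.26), and the plasma membrane pump gene *Atp2b1* rose from 100.3 ± 10.9 to 195 ± 14.3 CPM (0.96, adjusted p = 1e-06). Of 10 genes for mitochondrial uptake, 4 were higher, 3 lower and 3 did not pass, near the 37.9% and 39.4% of all genes, with *Mcu*, the pore of the uniporter, at 0.32 and *Mcur1* at −1.48. Of 8 cytosolic buffers and sensors 5 were higher and 3 lower, against the same shares of all genes, among them *Hpcal4* (2.20) and *Ncald* (1.55) above and *Hpcal1* (−1.35) below. Of the calmodulin kinase and calcineurin genes, *Camk2b* rose from 74.4 ± 17.1 to 473 ± 112 CPM (2.67, adjusted p = 4.2e-09) and *Camk2d* fell from 21.99 ± 4.27 to 7.30 ± 2.77 CPM (−1.63, adjusted p = 0.00011).

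In the test between mice, 5 of the 107 pathway genes passed, where 1.86% of all genes did. Besides *Itprid1*, which is named here after its value was seen, they were *Camk2b*, *Slc24a2*, *Ncald* and *Mcoln1*. *Camk2b* in TdTomato+ cells was highest in mouse 2 (621 CPM) and lowest in mice 3 and 4 (373 and 350.2 CPM). *Slc24a2* in these cells was highest in mice 3 and 4 (29.8 and 28.3 CPM) and lowest in mouse 2 (10.2 CPM).

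**Figure D5:**
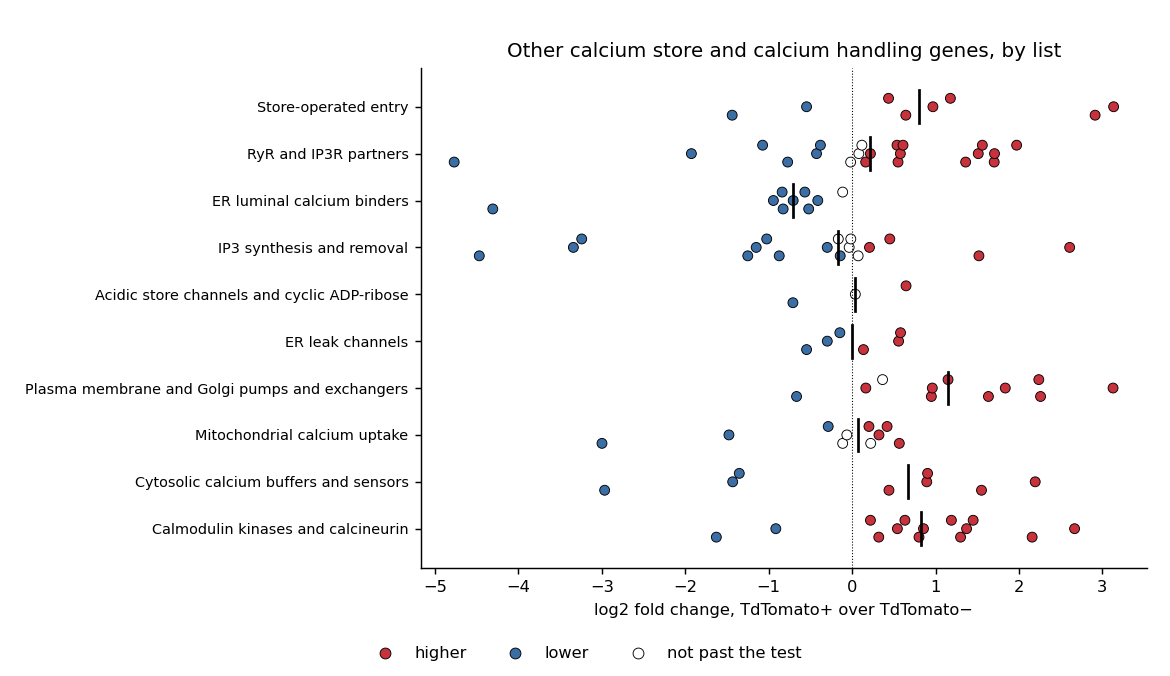
Log2 fold change of TdTomato+ over TdTomato− (horizontal axis) of the 107 pathway genes in the table, 1 point a gene, by list (rows), with red for genes higher and blue for genes lower at an adjusted p of 0.05 or less, white for genes that did not pass, and a black bar at each list's median. The medians of entry (0.81), plasma membrane and Golgi pumps and exchangers (1.15) and calmodulin kinases (0.83) lie to the right of 0, and that of the luminal binders (−0.71) to the left.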

How the data were processed

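Live TdTomato+ and TdTomato− cells were sorted at 14.5 dpc, and the table that the authors deposited holds unnormalized counts of reads for each gene in 10 libraries, 5 of each population. Per the methods of the study, reads were trimmed at a Phred score of 28, aligned to GRCm38 with STAR 2.4.2a (per the labels too) with at most 1 mismatch, kept where unique and counted with quantMode. The methods and the labels differ in library kit and read length (75 and 100 bases), and the strand column counted was not given in the sources used here, so reads on overlapping genes are uncertain. Every gene of the table exceeded 0.5 CPM in 5 or more libraries, and genes below that were not analysed here, which includes *Atp2a3*.

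The members and gene lists were chosen with earlier results of these data known. Populations were compared by the quasi-likelihood test of edgeR 4.0.16 (R 4.3.3; TMM scaling after filterByExpr) with mouse number as a block and Benjamini-Hochberg adjustment over 14300 genes. The procedure was also run on simulated data with changes planted in a small set of genes and no differences between mice. That setting is simpler than these data, and nothing is read from it. Each number carries both populations, the methods describe paired comparisons, and deviations from group means correlated at 0.186 to 0.316 within numbers and −0.312 to 0.212 between them. The labels do not say whether a mouse number is 1 embryo or a pooled litter. CPM used TMM-scaled library sizes, and RPKM used the union of GENCODE exons. Symbols were found for 14271 genes and not for 29.

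The genes named are the members, *Grem1*, the cell type markers, in each pathway list the 2 largest and 2 smallest log2 fold changes among genes past the test with the same direction in all 5 mice and a mean log2 CPM of at least 3 together with some direct partners, the 3 nearest profiles, and genes within 1 Mb of *Ryr3*. Not all are printed, and a few are not reported here. Alternatives were RLE and upper-quartile scaling, DESeq2 1.42.0, no mouse block, keeping genes over 1 CPM in 5 or more libraries, no filter, each mouse left out, and the longest transcript as the length in shares. The test between mice and its alternatives were added after the data had been seen.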

Additional observations from a re-analysis of the deposited data

Results flagged for a closer look

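*Itpr3* in the TdTomato− library of mouse 3 stood apart from the other libraries of its population, at −1.01 log2 CPM against −0.20 in the nearest and −0.02 in the highest, a gap of 0.823 of the whole range where Dixon's limit for 5 samples is 0.71. It rests on 12 reads. It was 1 of 18 groups of libraries examined, in which chance would flag about 0.9.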

How the results depend on the processing

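The mouse numbers pair the libraries, and without the replicate block 4 members passed the all-gene threshold in place of 7, without *Ryr1*, *Ryr2* and *Itpr3*; leaving out 1 mouse at a time gave 4 to 6, the lowest without mouse 4. The fitted differences of the members moved by less than the spread of the mouse pairs in all 98 alternatives run for them, although *Itpr1* turned from −0.08 to 0.03 without mouse 3 and *Stim1* from 0.03 to −0.04 without mouse 2. The counts of all genes and of pathway genes past the test stayed within 1.5 times their values in every alternative. The block changed no call of the other pathway genes named above that were compared. *Jph1*, *Itprid1*, *Plcb2* and *Plcd3* were not compared in the alternatives. *Plcb1*, which did not pass, turned to 0.077 without the block and ran from −0.16 to 0.18 with 1 mouse left out. *Ahcyl1* gained a call without mouse 2. No filter gave the main values, since the table had already been filtered. For the test between mice, DESeq2 called 939 genes in place of 266, and leaving out 1 mouse gave 74 to 205, with *Ryr3* at an adjusted p of 0.028 to 0.079; fewer mice enter those fits. With the longest transcript as the length, *Ryr3* was 28.7% of its family in TdTomato− cells, *Itpr1* 95.8% in TdTomato− and 97.6% in TdTomato+ cells, and *Stim2* 69.9% and 75.3%. Depth limits *Itpr2* in TdTomato+ cells and *Itpr3* in both populations.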
